A study of Mus musculus with 2 samples.

Results

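Xylt2, Zdhhc14 and Arl5c are 3 protein-coding genes whose nascent transcription was much lower in mouse macrophages after 1 hr of interleukin-4 (IL-4). They were picked by name, for their low ratio in these same libraries, out of 11054 genes that carried a called transcript in either library. Their transcripts were taken as every entry bearing the gene's name, which gave 98 of 43122 transcripts in control and 20 of 51365 after IL-4. Since these values chose the genes, all that follows on the genes is a description, with no test. The cells were bone marrow-derived macrophages (BMDMs) of wild-type mice of 8 to 12 weeks on the C57BL/6 background, differentiated for 6 days with M-CSF from L929-conditioned medium, and neither group carried a transgene or a deletion. The control group received no IL-4 and the treated group received 20 ng/ml IL-4 for 1 hr. Global run-on sequencing (GRO-seq), in which engaged RNA polymerases extend their transcripts in isolated nuclei and the new RNA is captured, was run in duplicate, and the reactions were pooled into 1 library per condition from about 100 ng of nascent RNA. There is therefore no replicate for any value, no spread between cultures can be given, and no statement here extends beyond these 2 libraries. Bulk libraries also cannot tell less nascent RNA per cell from fewer cells that transcribe a gene.

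IL-4 binds its receptor on macrophages and activates the transcription factor STAT6, which raises some genes and lowers others during alternative polarization. Xylt2 encodes a xylosyltransferase, an enzyme that starts glycosaminoglycan chains by adding xylose to proteoglycan core proteins. Zdhhc14 encodes a member of the DHHC family of palmitoyltransferases, which attach fatty acid to cysteines of proteins. Arl5c encodes an ARF-like (ARL) protein of the ARF family of small GTPases, a family known for control of membrane traffic. In GRO-seq, signal just past a start site comes from polymerases that have begun a gene, and signal further in comes from polymerases that are elongating through its body.

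The deposited values are transcripts, that is, strand-specific segments of run-on signal, each with a score printed to 1 decimal. Whether the score was scaled to library size or to length is not stated, and the depth of the libraries is unknown, so scores were compared between libraries for the same gene and not as levels between genes. A gene's value was the highest score among the transcripts with its name. Ratios of IL-4 to control are on the log2 scale, and were centred on the gene with the median ratio, which was 1.3-fold lower after IL-4. Because a score is known only to within 0.05, the range of ratios that rounding allows is given as the rounding range, which is not an experimental error. Of the 8 macrophage markers, 6 had a transcript in both libraries (Csf1r 5.6 in control and 4.6 after IL-4, Cd68 5.8 and 7.3), while Adgre1 and Spi1 had none by name. The highest scores of these markers summed to 17.4 (control) and 16.4 (IL-4). Within the other lists the sums were 1.0 and 0.8 for 4 T cell markers, 0.4 and 0.4 for 3 B cell markers, 1.1 and 0.5 for 4 neutrophil markers and 0.1 and 0.7 for 2 endothelial markers. The 3 fibroblast markers and the epithelial marker had no transcript. Because the lists differ in size and scores are not levels between genes, the sums are not compared between lists. The part of other cells in the results was not tested.

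By the highest score among named transcripts, the 3 genes lay far out in the lower tail of all genes. Zdhhc14 had its highest score at 5.8 in control and at 0.5 after IL-4. This was 8.92-fold lower, or -3.16 on the centred log2 scale (rounding range -3.32 to -3.01). For Arl5c the highest score was 1.2 in control and 0.1 after IL-4, which was 9.23-fold lower, or -3.21. That ratio rests on a printed value of 0.1 and is the least precise of the 3, with a rounding range of -4.27 to -2.56. Xylt2 went from 1.2 to 0.2 and was 4.62-fold lower, or -2.21 (rounding range -2.68 to -1.82). Of 8879 genes with a value in both libraries, 8.62% were at least 2-fold lower after IL-4, 3.36% were so over their whole rounding range, and 8.06% were at least 2-fold higher. All 3 genes were past 2-fold over their whole rounding range, and these ratios are what they were chosen for. Counted from the lowest ratio, Arl5c stood at rank 2, tied to rank 3, Zdhhc14 at rank 4 and Xylt2 at rank 41, tied to rank 57. These ranks hold for values taken by name, which leave out 3′ ends. By same-strand overlap with the annotated gene, the centred ratios were -2.22 for Xylt2, -1.69 for Zdhhc14 and -1.64 for Arl5c. No rank was formed for that measure.

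**Figure D1:**
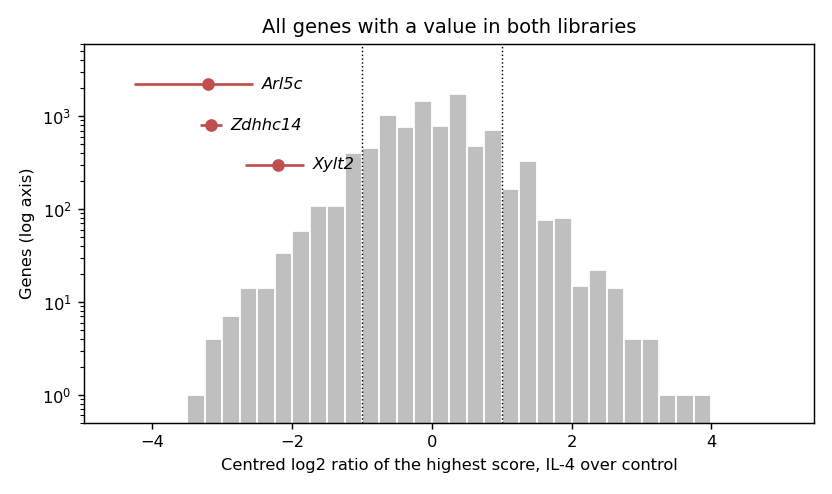
Histogram of the centred log2 ratio of the highest score (IL-4 over control) for the 8879 genes with a value in both libraries, with the number of genes on a log axis and dotted lines at 2-fold. Points mark the 3 genes and their horizontal bars the rounding range, and none of the 3 bars reaches the 2-fold line, although that of Arl5c is the widest.

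Fewer transcripts were called in all 3 genes after IL-4, at lower scores. For Zdhhc14 they numbered 81 in control and 15 with IL-4, and the summed scores were 54.8 and 4.0, so that 7.30% of the sum was left. Xylt2 had 12 and 4 transcripts with summed scores of 5.6 and 0.7, and Arl5c had 5 and 1 with 2.6 and 0.1. Position by position, 19 of the 98 control transcripts (19.4%) overlapped an IL-4 transcript on the same strand by at least 1 bp, against 62.6% of all control transcripts. Transcripts of low score more often lack a counterpart, and at scores of 1 or more the shares were 71.4% for the 3 genes (10 of 14) and 96.3% for all 3161 such transcripts. The 4 without a counterpart were 3 of the 12 in Zdhhc14 and the only such transcript of Arl5c.

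Where a transcript was called at the same place in both libraries, the score after IL-4 was lower at 18 of 19 places. All 14 matched Zdhhc14 transcripts were lower, by 1.5 to 14.5 times with a median of 7.2. Of the 4 in Xylt2, 3 were lower and 1 was equal, with a median of 3.25 times, and the matched transcript of Arl5c was 7 times lower. Over all 26998 matched control transcripts the median was 1.25 times lower and 54.1% were lower.

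**Figure D2:**
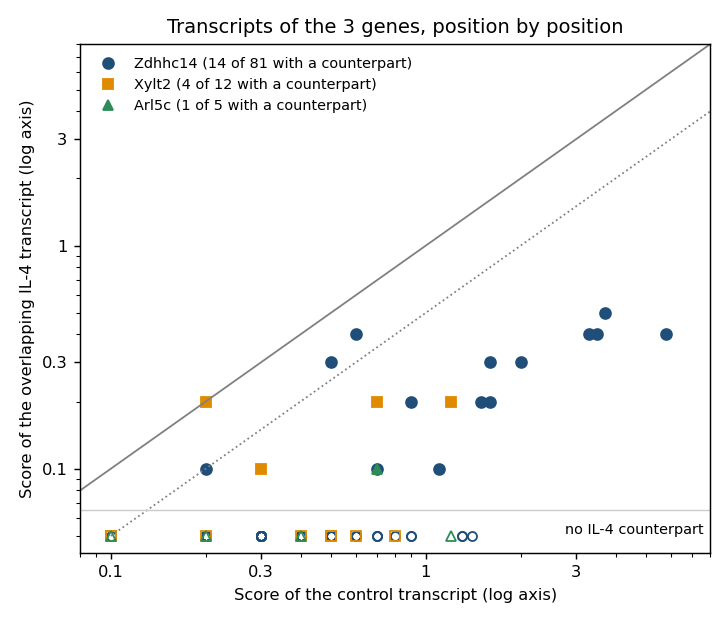
Score of each control transcript of the 3 genes (x axis, log) against the score of the IL-4 transcript overlapping it on the same strand (y axis, log), with transcripts that had no counterpart as open symbols in the strip at the bottom. The solid line marks equal scores and the dotted line a 2-fold lower score, and only a Xylt2 transcript (0.2 in both) lies on the line of equality.

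Whether the loss lay near the promoter or in the gene body was examined by splitting transcripts at 1000 bp from the nearest annotated transcription start site (TSS), each zone centred on its own median gene. The median was unchanged for promoter-near values and 1.5-fold lower for body values. In Xylt2 and Arl5c the promoter-near value was low after IL-4, whereas that of Zdhhc14 was less than 2-fold lower by its highest score. The promoter-near value of Arl5c went from 0.7 to 0.1, or -2.81 on the centred log2 scale (rounding range -3.91 to -2.12). That of Xylt2 went from 0.7 to 0.2, a ratio of -1.81 (-2.32 to -1.38). In Zdhhc14 it went from 0.6 to 0.4, a ratio of -0.58 (-0.89 to -0.29), which is short of 2-fold over the whole rounding range. Other measures put the start of Zdhhc14 lower. The summed score was 0.8 in control and 0.4 after IL-4, but 0.2 of the control sum came from a segment wholly upstream of the annotated start. Score times length, a measure added after the data were seen, was 498.6 and 107.6. The last is 5.41-fold lower after centring, or -2.44, and the segment over the start measured 740 bp in control and 269 bp with IL-4. Of 6429 genes with a promoter-near value in both libraries, 17.4% were at least 2-fold lower, and 9 genes had a ratio at or below that of Arl5c, 92 at or below that of Xylt2 and 2112 at or below that of Zdhhc14.

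Body values cover only transcripts that bear the gene's name, which leaves out the 3′ ends described further on. By this measure all 3 genes were low. The body value of Zdhhc14 went from 5.8 to 0.5, a ratio of -2.95 (rounding range -3.12 to -2.80), and that of Xylt2 from 1.2 to 0.2, a ratio of -2.0 (-2.47 to -1.62). Among 5949 genes with a body value in both libraries, 11.1% were at least 2-fold lower, with 6 at or below Zdhhc14 and 79 at or below Xylt2. Arl5c had 4 named body transcripts in control, the highest at 1.2, and none after IL-4, so that no ratio could be formed. The body ratio minus the promoter-near ratio was -2.37 on the log2 scale in Zdhhc14 and -0.19 in Xylt2. Of 3671 genes with both ratios, 9.92% had a body ratio at least 2-fold below the promoter-near ratio, and 26 (0.708%) were at or below Zdhhc14, against 1132 (30.8%) at or below Xylt2. The body values of Zdhhc14 and Xylt2 are the same scores that chose these genes. Their places in the body rankings are thus a description and no separate support. In Zdhhc14 the control body value is also the highest of 79 transcripts, and the promoter-near value the highest of 2. By highest score among named transcripts, Zdhhc14 thus had a start less than 2-fold lower and a much lower body, Xylt2 had both more than 2-fold lower, and Arl5c had a lower start and no named body transcript.

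Zdhhc14 (ENSMUSG00000034265.8) spans 261.255 kb on the plus strand of chromosome 17 (GRCm38, chr17:5492557-5753811) and has 9 exons, of which the second begins 155.3 kb and the third 193.1 kb from the start. Intron 1 held nearly all transcripts with the gene's name, 79 of 81 in control (summed score 54.0) and 13 of 15 after IL-4 (3.3). The transcript over the 5′ UTR in exon 1, centred 398 bp from the TSS, had a score of 0.6 in control and 0.4 after IL-4. The next, centred at 1192 bp over the end of exon 1 and the start of intron 1, had 0.5 and 0.3. From there the scores parted, with 0.7 in control and 0.1 after IL-4 already at 2286 bp. A further control transcript of 0.2, 820 bp upstream of the start, had no counterpart after IL-4.

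Deeper in intron 1 the 5 places with the highest control scores all stood at 0.5 or less after IL-4. The highest, centred 64501 bp from the TSS over a simple repeat, had 5.8 in control and 0.4 after IL-4. Others were 3.7 and 0.5 at 54537 bp, 3.5 and 0.4 at 118014 bp, 3.3 and 0.4 at 70220 bp, and 2.0 and 0.3 at 32057 bp. The loss was seen in and outside repeats. Repeat transcripts of Zdhhc14 numbered 30 in control and 6 after IL-4, with summed scores of 29.3 and 1.7 and highest scores of 5.8 and 0.5. Those outside repeats numbered 51 and 9, with sums of 25.5 and 2.3 and highest scores of 3.5 and 0.4. Simple repeats and low-complexity sequence held 12 and 3 of the repeat transcripts with sums of 15.9 and 0.8. In all transcripts of the libraries, 28.1% lay in repeats in control and 26.0% after IL-4.

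The names in the files stop short of the end of Zdhhc14. Transcripts take the name of the nearest start site, and those in the 3′ part of the gene bear the name of 3300005D01Rik, a long intergenic non-coding RNA gene that lies 44.8 kb beyond the end of Zdhhc14 in the GENCODE M21 annotation. All segments overlapping the annotated gene on its own strand were therefore counted as well, a step added after the data were seen, which gave 110 in control and 50 after IL-4. Split where the longest stretch without an IL-4 segment ends, summed scores were lower over the first 193.1 kb and not beyond. That boundary was taken from the IL-4 segments themselves, so the contrast across it is a description. Split at the gene's midpoint instead, the 3′ side kept 68.9% of its control sum. How often other long genes have such a stretch was not examined. After IL-4 no segment was called over 74.8 kb of the gene (chr17:5610823-5685656), which reaches from intron 1 across exon 2 and intron 2 to the start of exon 3, whereas the longest stretch without a segment in control was 17.8 kb. Before that stretch, 74 control segments with a summed score of 49.2 stood against 15 with 4.0 after IL-4, or 8.13% of the control sum. Within it control had 13 segments with a sum of 4.5 and none above 0.6. Another control segment, scored 3.5, ran across its upstream edge. Beyond it, 22 control segments with a sum of 8.3 stood against 35 with 8.4 after IL-4, or 101% of the control sum, with highest scores of 1.7 and 1.4. Because that 1.4 lies in intron 5, the highest score over the whole annotated gene was 5.8 in control and 1.4 after IL-4, or -1.69 in place of -3.16 on the centred scale.

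Segments also matched differently on each side of the stretch without IL-4 segments. Upstream of it 13 of 74 control segments had a counterpart after IL-4, and all 13 were lower, by a median of 7 times. Downstream 19 of 22 had a counterpart, of which 14 were lower, 3 equal and 2 higher, with a median of 1.5 times. Of all control transcripts, 62.6% had a counterpart, and the median of those was 1.25 times lower. Since the stretch was picked for its missing IL-4 segments, the counts on each side of it are a description. In steps of 25 kb from the start, the summed score was 8.7 in control and 0.8 after IL-4 in the first step, 12.8 and 0.9 in the second, and 19.4 and 1.6 in the third, the step with the highest control sum. The steps from 125 to 175 kb had 11 control segments and none after IL-4. The balance turned toward the 3′ end, with sums of 3.3 and 2.1 at 200 to 225 kb and 4.0 and 5.1 at 225 to 250 kb, where 8 control and 18 IL-4 segments were called. By intron, intron 2 had 8 segments in control and none after IL-4, intron 3 had 8 and 9, intron 5 had 8 and 8, and intron 8 had 3 and 10. Segments were longer after IL-4 in the whole library (median 312 bp, against 227 bp in control), and over the 3′ part of Zdhhc14 the median lengths were 374 and 227 bp. The part of this calling difference in the higher segment number was not tested.

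**Figure D3:**
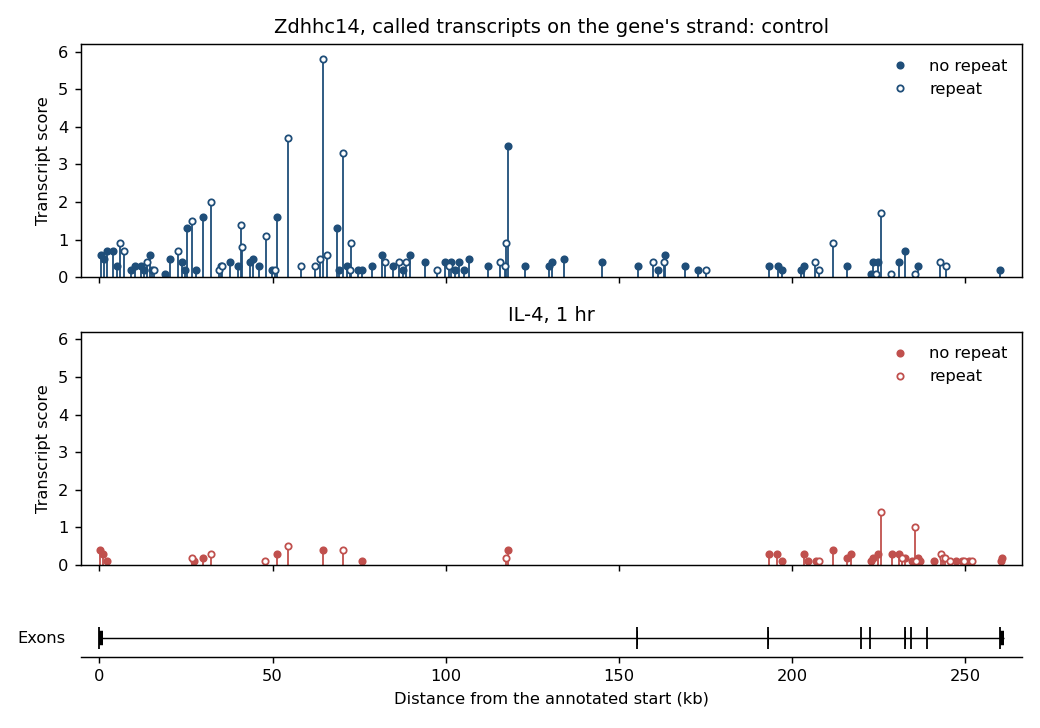
Score of every segment called on the strand of Zdhhc14 against its distance from the annotated start in kb, for control (top) and IL-4 (middle), with filled points outside repeats and open points in repeats, and the exons drawn below. Control scores reach 5.8 in intron 1, IL-4 scores there stay at or below 0.5, no IL-4 segment lies between 118.3 and 193.1 kb, and both libraries have segments from there to the 3′ end.

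Exons 2 and 3 of Zdhhc14 lie on either side of this change and are shown for that reason. The segment called over exon 2 had a score of 0.3 in control and none was called after IL-4, whereas exon 3 had a segment of 0.3 in both libraries. Both exons are fully coding. Their sequences, 5′ to 3′ on the plus strand, were read from the GENCODE M21 transcripts of GRCm38, and capitals mark the bases under the control segment in exon 2 and under the IL-4 segment in exon 3.
Zdhhc14 exon 2, chr17:5647903-5648063: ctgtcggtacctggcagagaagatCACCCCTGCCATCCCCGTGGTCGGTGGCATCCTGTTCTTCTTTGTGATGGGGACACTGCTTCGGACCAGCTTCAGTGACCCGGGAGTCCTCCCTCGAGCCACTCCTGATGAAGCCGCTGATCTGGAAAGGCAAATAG
Zdhhc14 exon 3, chr17:5685655-5685813: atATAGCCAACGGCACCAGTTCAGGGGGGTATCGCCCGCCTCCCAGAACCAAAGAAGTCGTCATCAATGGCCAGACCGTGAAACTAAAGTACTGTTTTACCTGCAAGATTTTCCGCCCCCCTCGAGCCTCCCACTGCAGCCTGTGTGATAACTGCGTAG

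How unusual this shape was among long genes was examined in the 269 protein-coding genes of at least 150 kb that had segments on both sides of their midpoint in both libraries, of 1471 annotated. On the 5′ side of its midpoint Zdhhc14 kept 7.50% of its summed score (53.3 in control and 4.0 after IL-4), and on the 3′ side it kept 68.9% (12.2 and 8.4). The log2 ratio of the 5′ side minus that of the 3′ side was thus -3.20, and the median of this difference over the long genes was 0.01. Of the 269 genes, 14.5% were at least 2-fold lower on the 5′ side relative to the 3′ side and 19.7% the other way. Zdhhc14 had the third lowest difference, after Phlpp1 (-4.34, from 6 control segments on the 5′ side) and F13a1 (-3.39, from 7). With 77 control segments there, it had the lowest of the 110 genes with at least 10, a floor that leaves out Phlpp1 and F13a1. Both the comparison and this floor were added after the data were seen. The shape was not confined to Zdhhc14. Pitpnc1, with 31 control segments on the 5′ side, kept 9.88% of its summed score there and 60.7% on the 3′ side, a difference of -2.62. The transcript that gave Zdhhc14 its place among the 3 genes lies on the 5′ side, so its position in this ranking is a description of the gene and no separate support for the loss.

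**Figure D4:**
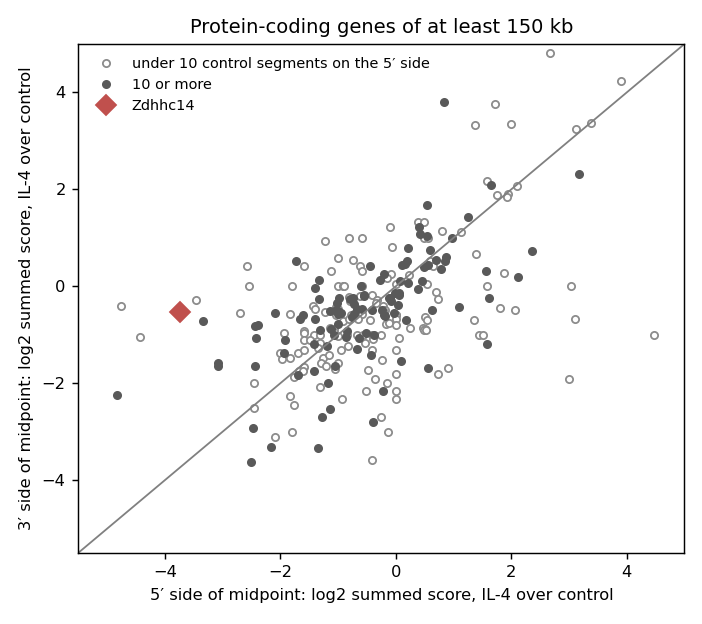
Log2 ratio of the summed score (IL-4 over control, not centred) on the 5′ side of the gene's midpoint (x axis) against that on the 3′ side (y axis) for 269 protein-coding genes of at least 150 kb. The line marks equal ratios, filled points have at least 10 control segments on the 5′ side, and Zdhhc14 (diamond) lies at -3.74 and -0.54, far to the left of the line.

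Xylt2 (ENSMUSG00000020868.15) spans 13.665 kb on the minus strand of chromosome 11 (GRCm38, chr11:94663851-94677515) and has 11 exons. Its transcripts lay mainly in intron 1, with 8 in control (summed score 5.0) and 3 after IL-4 (0.5). From the start inwards, the control scores in intron 1 were 0.7 at 675 bp, 0.4 at 1534 bp, 0.5 at 1853 bp, 1.2 at 2702 bp, 0.5 at 3163 bp, 0.8 at 4576 bp, 0.6 at 5394 bp and 0.3 at 6445 bp from the TSS. After IL-4 they were 0.2 at 234 bp, 0.2 at 2749 bp and 0.1 at 6512 bp. Signal was thus called at 8 places along intron 1 in control and at 3 of them after IL-4, each below the control score there. The highest control transcript, 1.2 at 2702 bp, was annotated to a CA repeat, and the IL-4 transcript overlapping it was not. Leaving out repeats, the highest score of Xylt2 went from 0.8 to 0.2.

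Past intron 1, control transcripts of Xylt2 were called at exon 3 (0.1), exon 6 (0.1), exon 8 (0.2) and, in a SINE repeat, intron 9 (0.2). Of these only exon 8 was left after IL-4, at 0.2, equal to control. A segment over the 3′ UTR in exon 11, which bears the name of the neighbour Mrpl27 in the files, had 0.3 in control and 0.2 after IL-4. In the 10 kb beyond the annotated end, on the strand of Xylt2, control had 5 segments with a highest score of 1.4 and a sum of 2.2, and IL-4 had none. Segments over exons 8 and 11 thus stood within 0.1 of control, while exons 2, 3, 6, 7 and 10 were touched by a control segment and by none after IL-4. Exon 8, the place where the scores were equal, is fully coding and is shown 5′ to 3′ on the minus strand (GENCODE M21, GRCm38), with capitals for the bases under the IL-4 segment.
Xylt2 exon 8, chr11:94667584-94667846: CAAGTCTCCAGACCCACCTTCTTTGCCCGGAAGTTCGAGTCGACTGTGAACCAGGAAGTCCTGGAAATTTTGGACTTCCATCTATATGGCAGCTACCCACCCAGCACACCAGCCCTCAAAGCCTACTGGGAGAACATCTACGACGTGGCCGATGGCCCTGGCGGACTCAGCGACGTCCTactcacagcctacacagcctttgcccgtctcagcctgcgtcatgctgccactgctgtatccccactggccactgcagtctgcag

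The start of Xylt2 is shown because its promoter-near transcript was retained at a lower score, and the IL-4 transcript there was annotated to a CpG island. The sequence is the 228 bases just before the annotated start on the minus strand, from the RefSeq promoter table (GRCm38.p6), with each CpG in capitals. Among the 3 genes only Xylt2 was matched in that table.
Xylt2 promoter, chr11:94677516-94677743: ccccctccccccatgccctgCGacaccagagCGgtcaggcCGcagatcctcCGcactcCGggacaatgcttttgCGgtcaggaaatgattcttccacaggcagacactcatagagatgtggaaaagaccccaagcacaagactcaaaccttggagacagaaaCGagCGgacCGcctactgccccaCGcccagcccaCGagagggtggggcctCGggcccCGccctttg

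The table's window of 300 bases for Xylt2 held 23 CpGs and 66.3% G and C, above the medians of 7 CpGs and 52.7% over 32817 promoters. Searched on both strands, the palindromic letters TTCNNNNGAA, the form of the STAT motif with the spacing that STAT6 is known to favour, were absent from the window and were present in 6.94% of all promoters. TTCNNNGAA, with a shorter spacing, was also absent, against 8.29% of all promoters. These counts concern the letters in this window alone.

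Arl5c (ENSMUSG00000038352.15) spans 6.604 kb on the minus strand of chromosome 11 (GRCm38, chr11:97989578-97996181) and has 6 exons. None of its named transcripts lay in a repeat. In control a transcript of 0.7 was centred 588 bp from the TSS at the start of intron 1, and further transcripts of 0.4, 0.1 and 1.2 were centred in introns 3, 4 and 5, at 1970, 2849 and 4123 bp. A control transcript of 0.2 at 1037 bp lay on the opposite strand. After IL-4 the gene had a single transcript by name, of 0.1, at 478 bp. Both the start and the body of Arl5c were therefore low, and the 3 later introns had no named transcript left.

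At its 3′ end Arl5c kept some signal that its name does not cover. The segment over the 3′ UTR in exon 6 bears the name of the neighbour Plxdc1 in the files and had a score of 1.6 in control, above every transcript named for Arl5c, and 0.4 after IL-4. Taken by same-strand overlap rather than by name, the value of Arl5c was thus 1.6 in control and 0.4 after IL-4, or -1.64 in place of -3.21. A segment of 0.2 over a CA repeat in intron 5 had no counterpart. In the 10 kb beyond the end, 1 segment was called in each library, with 0.2 in control and 0.3 after IL-4. Exon 3 of Arl5c is fully coding and lay whole under a control segment of 0.4 that had no counterpart after IL-4. It is shown 5′ to 3′ on the minus strand (GENCODE M21, GRCm38), with capitals for the bases under the control segment.
Arl5c exon 3, chr11:97994338-97994485: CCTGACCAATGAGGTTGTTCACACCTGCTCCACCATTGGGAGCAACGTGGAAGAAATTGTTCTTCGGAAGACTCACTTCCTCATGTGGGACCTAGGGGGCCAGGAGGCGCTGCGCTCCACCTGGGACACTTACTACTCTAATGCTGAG

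Counted by exon, segments touched 8 of 11 exons of Xylt2 in control and 3 after IL-4, 4 of 6 exons of Arl5c in control and 2 after IL-4, and 4 of 9 exons of Zdhhc14 in both libraries, 3 of them shared. The exons of Xylt2 and Arl5c left after IL-4 were all among those touched in control. No such count was made over the exons of all genes, so these counts have no background. Of all control transcripts, 62.6% overlapped an IL-4 transcript. Control segments over exons 3, 6, 7 and 10 of Xylt2 and exon 4 of Arl5c scored only 0.1 or 0.2. Loss cannot be told apart there from a difference in calling.

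**Figure D5:**
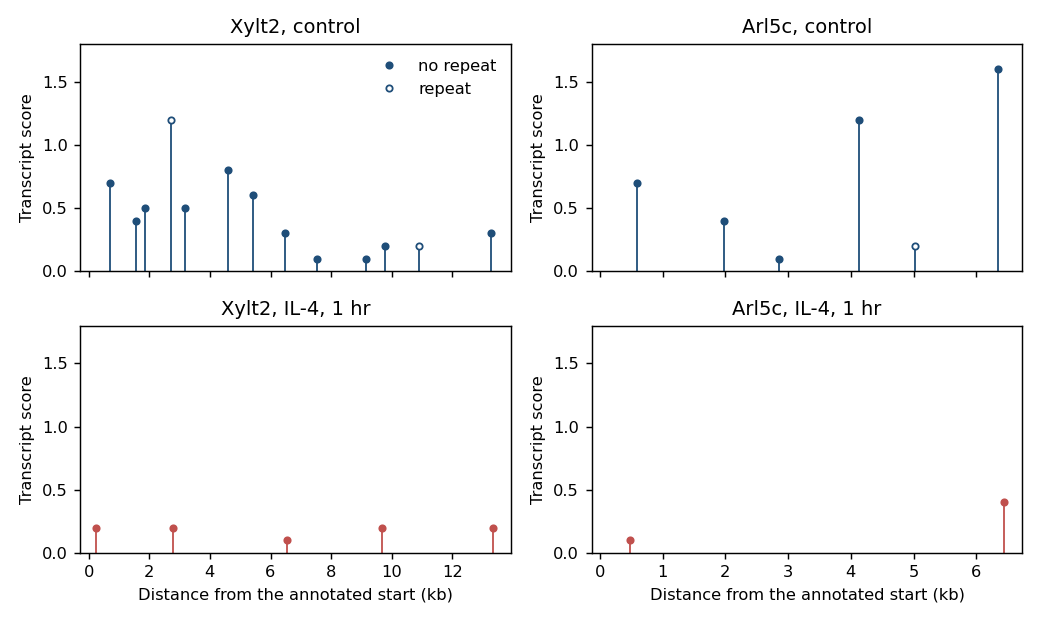
Score of every segment called on the strand of Xylt2 (left) and Arl5c (right) against its distance from the annotated start in kb, for control (top) and IL-4 (bottom), with open points in repeats. Control scores of Xylt2 reach 1.2 and those of Arl5c 1.6 at the 3′ UTR, whereas IL-4 scores reach 0.2 and 0.4.

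Too few neighbouring genes had a value in both libraries to show whether they shared the loss. Within 100 kb of the 3 genes, 33 genes are annotated, 11 had a segment on their own strand in either library and 5 had a segment in both. None of these 5 was past 2-fold in either direction on the centred scale, where 8.62% of all genes were lower and 8.06% higher. Those shares and the centre rest on values taken by name, whereas neighbour values were taken by same-strand overlap. Gm11632 lies within Fbxl20 on the same strand, so these neighbours are not separate observations. Near Arl5c, the ribosomal protein gene Rpl19 had 1.1 in control and 0.7 after IL-4, Fbxl20 had 0.4 and 0.2 (2-fold lower as printed and -0.62 after centring) and Gm11632 had 0.1 and 0.1. Plxdc1 (0.2) and the calcium channel subunit gene Cacnb1 (0.1) had segments in control alone. Near Xylt2, Lrrc59 had 0.6 in both libraries, Acsf2 had 0.4 in control alone and Mrpl27, on the plus strand, had 0.4 after IL-4 alone. Near Zdhhc14, the sorting nexin gene Snx9 had 1.5 and 0.9, and Tmem242 and 3300005D01Rik each had 0.1 after IL-4 alone.

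Genes of related function were examined by lists, to be read against the 8.62% of all genes that were at least 2-fold lower and the 8.06% that were higher. Of 25 genes of glycosaminoglycan synthesis, 15 had a value in both libraries. Their median centred log2 ratio was -0.04, where the median of all genes is 0 by construction. Of the 15, 1 was at least 2-fold higher (Ndst2, 0.3 and 0.5, rounding range 0.74 to 1.52) and 1 at least 2-fold lower. The lower gene was Xylt1, which encodes the other xylosyltransferase and went from 1.7 to 0.5, a ratio of -1.39 (rounding range -1.58 to -1.21). That rests on its highest transcript, since its summed score of 3.9 in control and 2.3 after IL-4 gives -0.47, short of 2-fold. Other calls in the list also changed with sums. By that measure Hs6st1 (-2.30) and Csgalnact2 (-1.03) were at least 2-fold lower, and Hs2st1 (1.17) was at least 2-fold higher. Of 10 genes for proteoglycan core proteins, 4 had a value in both libraries, 2 were at least 2-fold higher and none was lower. These were Sdc4, a cell-surface heparan sulfate proteoglycan, with a score of 1.0 in control and 2.1 after IL-4 (centred ratio 1.45), and Cd44, the hyaluronan receptor, with 0.9 and 2.2 (1.67).

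For the lists below the shares of all genes are the same, 8.62% lower and 8.06% higher. Of 31 genes of protein palmitoylation, 21 had a value in both libraries, none was at least 2-fold higher and 3 were lower (Zdhhc7 and Zdhhc9 from 0.6 to 0.2, and the thioesterase gene Ppt2 from 0.9 to 0.3), with a median of 0.16. None of the 3 was past 2-fold over its whole rounding range, against 3.36% of all genes. Among the genes of this list with the highest values, Zdhhc2 stood at 1.1 and 0.9, Zdhhc12 at 1.0 and 1.0, and Zdhhc20 at 0.7 and 1.0, level with Abhd17b at 0.9 and 1.0. By summed score Abhd17b was at least 2-fold higher, at 1.4 in control and 3.6 after IL-4 (centred ratio 1.65). Of 28 ARF and ARL genes, 22 had a value in both libraries, 4 were at least 2-fold higher (Arl6, Arl11, Arl15 and Sar1b, all at or below 0.5) and none was lower, with a median of 0.38, which is the centred ratio of a gene with equal scores in both libraries. The paralog Arl5a went from 1.7 to 0.7, a ratio of -0.90 (rounding range -1.05 to -0.76), and Arl5b had 0.3 in both libraries. Arl4d had 1.2 and 0.8 and Arf4 had 1.0 and 0.8. By summed score Arf3 was at least 2-fold higher, at 1.0 in control and 2.1 after IL-4 (centred ratio 1.36).

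The genes whose pair of values lay nearest to each of the 3, by distance between log2 scores in both libraries, were C130050O18Rik (1.2 in control and 0.2 after IL-4) and Nck2 (1.3 and 0.2) for Xylt2, Arhgap22 (1.2 and 0.1) and Hspbap1 (1.0 and 0.1) for Arl5c, and Pitpnc1 and Cd180 (5.1 and 0.8 each) for Zdhhc14. The pair nearest to Zdhhc14 stood 0.703 log2 units away, whereas Xylt2 and Arl5c each had a gene with the same printed values. This likeness is over 2 libraries and printed scores alone. Because scores are not levels between genes, it does not mean that these genes were transcribed at like levels.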

How the data were processed

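Per the labels and the study's methods, the authors ran nuclear run-on reactions in duplicate for each condition, pooled them, aligned the reads with BWA to mm10 (GRCm38), removed artifact regions and used HOMER in its GRO-seq style to call transcripts separately per library. The submitters' processing notes give BWA 0.7.10, SAMtools 0.1.19 and HOMER 4.2. The deposited value is a peak score per transcript, printed to 1 decimal. Whether the authors scaled this score is not given in the sources used here, and the files hold no read counts, so depth is unknown and no counting interval was formed.

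From the deposited scores, gene values (the highest score by name), sums, zones (split at 1000 bp from the TSS) and same-strand overlaps (at least 1 bp) were computed with Python 3.11.15, numpy 2.4.6 and pandas 2.3.3, and plotted with matplotlib 3.10.9. The code was tested on simulated scores. Only sizes of distances to the TSS were used. With 1 library per condition no test was possible, and "at least 2-fold" is a limit of size. Gene spans and exon sequences came from GENCODE M21 and the promoter sequence from RefSeq GRCm38.p6. The 3 genes and all gene lists were chosen with earlier results of these data known. Named beside the 3 genes were every gene within 100 kb with a transcript, list genes past 2-fold for every ratio that rounding allows or otherwise the 3 with the highest values, and the 2 genes nearest to each in both values. Other genes were named after their values were seen (Ndst2, Hs6st1, Csgalnact2, Hs2st1, Arl5b, Zdhhc7, Zdhhc9, Ppt2, Arl6, Arl11, Arl15, Arf3, Sar1b, Phlpp1, F13a1, and Csf1r, Cd68, Adgre1 and Spi1 among the markers). Alternatives changed the gene value, strand rule, repeats, zone limit and centring. Intron sequences were not used here.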

Additional observations from a re-analysis of the deposited data

How the results depend on the processing

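In all 59 alternative ratios of the 3 genes the value after IL-4 was the lower. The genes were chosen for this direction in the same libraries, so these ratios are no separate support, and several equal the main value. At the start of Zdhhc14, 6 of 8 alternatives kept the highest score and stayed short of 2-fold. Sums reached 2-fold only with a control segment upstream of the annotated start included, and score times length passed it. Values are centred log2 ratios of IL-4 over control unless stated. For the gene ratio, summing the scores gave -2.71 for Xylt2, -3.49 for Zdhhc14 and -4.41 for Arl5c, and summing score times length gave -4.05, -3.97 and -4.97. The transcript nearest the TSS gave -1.81 for Xylt2 and -0.58 for Zdhhc14, leaving out repeats gave -1.68 and -2.81, same-strand overlap with the annotated gene gave -1.69 for Zdhhc14 and -1.64 for Arl5c, and no centring gave -3.54 for Zdhhc14. Near the promoter, a split at 5000 bp gave -2.43 for Xylt2, and for Zdhhc14 sums gave -1.0 and centring on the whole-gene median -0.21. Score times length within the zone, chosen after seeing the data, gave -3.64 for Xylt2 and -2.44 for Zdhhc14 near the promoter, and -4.15 and -3.96 in the body. In the body, Xylt2 had -1.0 with the split at 5000 bp, -1.42 without repeats, -2.88 by sums and -2.58 without centring, and Zdhhc14 had -2.54 without repeats, -3.49 by sums, -3.16 with whole-gene centring and -3.54 without centring. By same-strand overlap, control transcripts outnumbered those after IL-4 by 2.2 times in Zdhhc14 and 3 times in Arl5c. The number of genes at least 2-fold lower was 1215 by sums, 2459 by the transcript nearest the TSS and 2161 without centring. For Zdhhc14, the log2 ratio on the 5′ side of the midpoint minus that on the 3′ side was -2.44 by number of segments, -3.76 by score times length and -2.78 without repeats, choices made after seeing the data. The cause of these shifts was not tested. Another 40 alternatives left the value within its rounding range (counts within 1.5 times, the share of matched transcripts within its 95% Wilson interval and the midpoint comparison within 0.2), and none changed sign. That interval treats transcripts of the same gene as independent, so it served only as a limit of size and measures no spread. The share itself was 19.4%, and 16.3% with an overlap of at least 50%. No value could be formed for the body of Arl5c, for the promoter-near split at 500 bp in Xylt2 and Arl5c, or for the transcript number of those genes at scores of at least 0.3. No paired analysis was possible because each condition has 1 library. The main limits are the lack of replicates, the unknown depth, and scores of 0.1 or 0.2 after IL-4, at which rounding alone can move a ratio widely.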
